A study of Chlorocebus aethiops with 36 samples.

Results

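The ABC sterol exporters ABCA1, ABCG1, ABCG5 and ABCG8 were followed in liver biopsies of African green monkeys treated with an antisense oligonucleotide against the microRNA miR-33. They are 4 of the 19775 genes that a probe set of the array names singly. Their members were all probe sets, the sets of short oligonucleotides that measure a transcript on the array, whose platform annotation names 1 of these 4 genes and no other. This gave 10 of 54675 probe sets, or 10 of the 41097 that name a single gene: 4 for ABCA1, 4 for ABCG1, 1 for ABCG5 and 1 for ABCG8.

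The animals were 12 male Chlorocebus aethiops, 6 given a control anti-miR and 6 given anti-miR-33, each by subcutaneous injection at 5 mg/kg. Every animal had a biopsy at week -5, before any treatment and on normal chow, 4 weeks into treatment and still on chow, and at treatment week 12, by when a diet high in carbohydrate and moderate in cholesterol had been fed for 8 weeks. This made 6 groups of 6 arrays, 36 in all. The week 4 array of a control animal is labelled with the later diet and not with chow. The control anti-miR is an oligonucleotide treatment of its own, and no untreated animals were sampled at weeks 4 and 12. Time therefore moves together with the injections from week -5 to week 4, and with injections and diet from week 4 to week 12. Animals carry the numbers 1 to 6 in each arm. Baseline biopsies carry no treatment, so their arm is that of the same animal at its later biopsies.

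Cholesterol leaves a liver cell by several ATP-driven pumps of the ABC family. ABCA1 hands cholesterol and phospholipid across the sinusoidal membrane to lipid-poor apolipoprotein A-I and so forms nascent HDL, and ABCG1 passes cholesterol to HDL particles that already exist. ABCG5 and ABCG8 are neighbouring genes whose products pair into a canalicular transporter that moves cholesterol and plant sterols into bile. Liver X receptors (LXR), which sense oxysterols, activate the transcription of all 4 genes. The microRNA miR-33, encoded inside the genes SREBF2 and SREBF1, represses the ABCA1 transcript.

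The levels below are deposited log2 signals, so a difference of 1 is a factor of 2. The array was built on human transcripts and met those of another primate, so levels of different probe sets were not set against each other. Of the 10 probe sets, 4 had a mean above the median of all probe-set means (4.46) and were tested together with 22391 probe sets in a model across the whole table: ABCA1 203505_at, ABCG1 211113_s_at, ABCG5 220383_at and ABCG8 231751_at. Their means over the 36 arrays were 8.03, 5.05, 8.61 and 8.29. The other 6, 3 of ABCA1 and 3 of ABCG1, had means between 3.08 and 4.34. A call means an adjusted p under 0.05 from limma with Benjamini-Hochberg adjustment over all 22391 probe sets.

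Array pairs correlated at r = 0.971 to 0.993 and array medians lay between 4.42 and 4.51. All 8 hepatocyte markers were above the filter, with a mean level of 12.5 to 13.2 in each biopsy; the lowest, 12.5, was the week 12 biopsy of control animal 5. In the labels the array numbers of baseline and week 12 follow on from each other and those of week 4 form a separate, later series. The labels name no batch, and a change to or from week 4 cannot be told apart from any difference that goes with this numbering. The week 4 array of control animal 1 is labelled with the high carbohydrate diet and the other 11 of that week with chow. Its group was taken from its title. The ABCA1 arm difference at week 4 lay between 0.50 and 0.56 under alternatives that included leaving this array out. For the control probe sets of GAPDH and ACTB, the log2 difference between the 3′ and 5′ ends, which is larger where RNA is more degraded, fell from 2.57 ± 0.43 at week -5 to 1.94 ± 0.41 at week 4 and 1.83 ± 0.16 at week 12 (SD, n = 12).

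ABCA1 was higher under anti-miR-33 than under control at week 4 by 1.46-fold, and the difference was not called over the whole table. Among the 4 tested probe sets it was the only 1 whose arms differed at an unadjusted p under 0.05, at any of the 3 weeks. At week -5, with both arms untreated, 203505_at ran from 7.40 to 8.32 in the control arm (median 7.82) and from 7.33 to 8.12 in the anti-miR-33 arm (median 7.80). At week 4 the control arm ran from 7.41 to 8.11 (median 7.54) and the anti-miR-33 arm from 7.81 to 8.68 (median 8.20). The week 4 arms overlapped only through control animals 3 and 4, at 8.11 and 7.84, and anti-miR-33 animals 2 and 5, at 7.81 and 7.99. At week 12 the control arm ran from 7.95 to 8.53 (median 8.21) and the anti-miR-33 arm from 7.94 to 9.00 (median 8.47), so that the arms overlapped over most of their range.

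The arm difference of ABCA1 (anti-miR-33 minus control, log2 ± SE, n = 6 per arm) was -0.06 ± 0.17 at week -5. It was 0.55 ± 0.17 at week 4, with a 95% interval of 0.20 to 0.90, an unadjusted p of 0.00283 and a limma adjusted p of 0.882. The exact permutation test of this value, two-sided, gave p = 0.0108, 1 of 60 such tests of members and not adjusted for them. At week 12 the difference was 0.24 ± 0.17, with an interval of -0.11 to 0.59 and an exact p of 0.203. In this arm comparison limma called 0 of 22391 probe sets at week 4 (0% of those tested), while 1137 had an unadjusted p under 0.05. ABCA1 stood at rank 67 of them by p. At week -5, with both arms untreated, 882 of the 22391 had an unadjusted limma p under 0.05 between the arms.

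**Figure D1:**
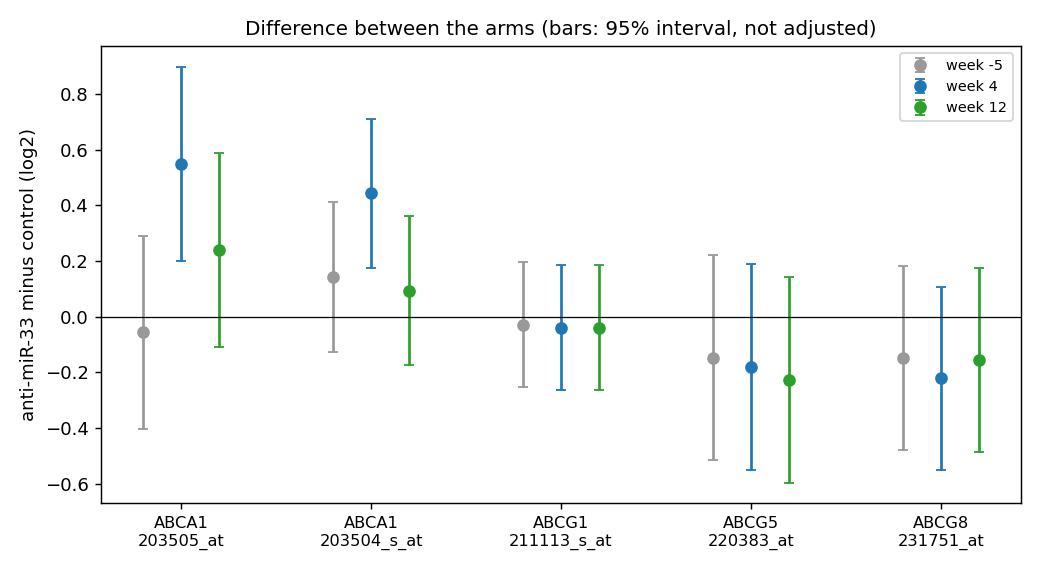
Difference between the arms, anti-miR-33 minus control, in log2 units (vertical axis) for the 4 tested probe sets and a dim ABCA1 probe set (horizontal axis) at week -5 (grey), week 4 (blue) and week 12 (green), 6 animals per arm. Bars are 95% intervals without adjustment for the number of tests. Both ABCA1 probe sets drawn have intervals above 0 at week 4 (0.55 and 0.44). Every interval of the tested ABCG1, ABCG5 and ABCG8 probe sets includes 0. The other ABCA1 probe sets, which differed little at week 4, are not drawn, and neither are the dim ABCG1 probe sets. Of the latter, 232081_at had a week 12 interval of -0.64 to -0.09 with the 3′ minus 5′ difference in the model. That difference was not called.

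The dim ABCA1 probe set 203504_s_at, mean 4.34, was just under the filter. At week 4 it ran from 3.76 to 4.39 under control and from 4.27 to 5.39 under anti-miR-33, the highest value being that of animal 4, which was also highest for 203505_at. In the model with no filter on dim probe sets its week 4 arm difference was 0.44 ± 0.13 (exact permutation p = 0.0130, limma adjusted p = 0.623), against 0.14 ± 0.13 at week -5 and 0.09 ± 0.13 at week 12. It reads the same transcript in the same biopsies, so it is another reading of these animals and not a further sample. ABCA1 216066_at and 1570279_at, with means of 4.07 and 3.59, differed at week 4 by 0.05 and by -0.02.

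The growth of the ABCA1 arm difference between biopsies was not called. ABCA1 changed from week -5 to week 4 by 0.61 ± 0.23 more under anti-miR-33 than under control (exact permutation p = 0.0584; 5 of 6 anti-miR-33 animals and 3 of 6 control animals went up). From week 4 to week 12 the order turned, with a change that was 0.31 ± 0.23 smaller under anti-miR-33 (exact permutation p = 0.214). CROT, a fatty acid oxidation gene that miR-33 also represses, differed between the arms by -0.08 ± 0.11 at week -5, 0.23 ± 0.11 at week 4 and 0.35 ± 0.11 at week 12. So the CROT value was largest at week 12 and the ABCA1 value at week 4; neither was called and the difference between these courses was not tested.

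Within the arms, the ABCA1 change from week 4 to week 12 was called under control and the change from week -5 to week 12 was called under anti-miR-33. Under control, week 4 minus week -5 was -0.19 ± 0.16, with 3 of 6 animals going up, and week 12 minus week 4 was 0.60 ± 0.16, with all 6 going up by 0.11 to 1.04. The latter was called (limma adjusted p = 0.0174; exact permutation p = 0.0312, the smallest that 6 animals allow), in a comparison where 3.65% of all probe sets were called higher. That call was lost without control animal 1 (0.55, adjusted p = 0.0628), without control animal 5 (0.51, adjusted p = 0.0840) and without the week 12 array of control animal 5 alone (0.54, adjusted p = 0.0523). The dim 203504_s_at also rose in all 6 control animals over this interval but was not called (0.37 ± 0.13, limma adjusted p = 0.0838), and 216066_at and 1570279_at gave 0 and 0.017. Under anti-miR-33 the change from week -5 to week 4 was 0.42 ± 0.16 (adjusted p = 0.0590) and passed without animal 1 (0.47, adjusted p = 0.0446) or without animal 2 (0.52, adjusted p = 0.0445). Without animal 4, whose change was the largest, it was 0.23 (limma adjusted p = 0.358). Of 13 alternatives of the fit, 2 called this change. These were the 75th percentile filter (0.42, limma adjusted p = 0.0492) and quantile normalization (0.45, limma adjusted p = 0.0415). The lowest value among the 13 was 0.29. For 203504_s_at the same change was 0.46 ± 0.13 and called (limma adjusted p = 0.0127; 5.7% of the 41097 probe sets without the filter were called higher).

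By week 12 ABCA1 under anti-miR-33 was 0.71 ± 0.16 above its own baseline, which was called (limma adjusted p = 0.00234; 5 of 6 animals; 7% of all probe sets called higher). The exception was animal 1, which went from 8.07 to 7.94. The largest rises were those of animal 5, from 7.55 to 9.00, and animal 4, from 7.33 to 8.73. In the control arm the same interval gave 0.41 ± 0.16 (adjusted p = 0.104; 5 of 6 animals). On 203504_s_at both arms were called over this interval, control at 0.54 ± 0.13 (limma adjusted p = 0.00959; 1.28% of all called higher) and anti-miR-33 at 0.49 ± 0.13 (limma adjusted p = 0.0125; 3.39%), each with all 6 animals up. The test of the difference between the arms over this interval gave 0.30 ± 0.23 (exact permutation p = 0.361) for 203505_at and -0.050 ± 0.18 (exact permutation p = 0.760) for 203504_s_at.

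Ordered by mean level, the 6 ABCA1 groups ran from control at week 4 (7.64) through anti-miR-33 at week -5 (7.78), control at week -5 (7.83), anti-miR-33 at week 4 (8.20) and control at week 12 (8.24) to anti-miR-33 at week 12 (8.48). Only the step from control at week -5 to anti-miR-33 at week 4, 0.36, was larger than the SD within either neighbour. The other neighbours in this order differed by less than the spread between animals. For ABCG1, ABCG5 and ABCG8 no step between neighbouring groups exceeded that spread.

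**Figure D2:**
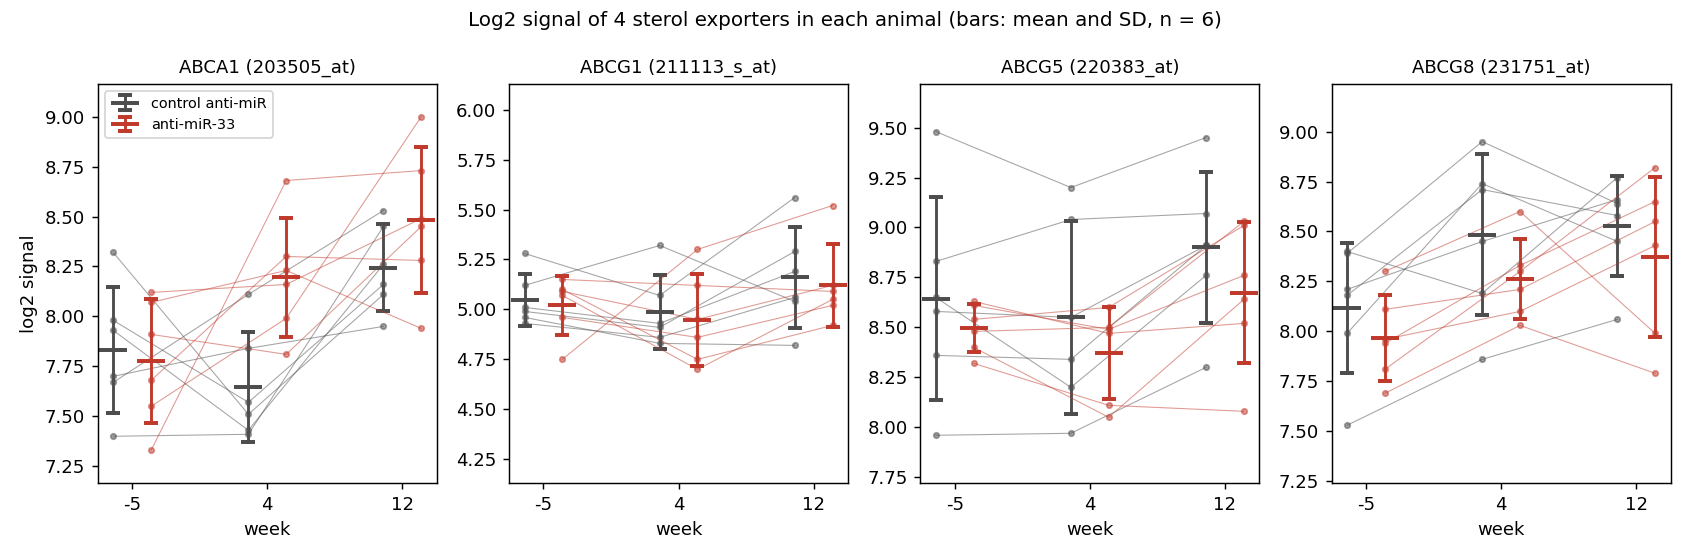
Log2 signal (vertical axis, each panel spanning 2 log2 units) of ABCA1, ABCG1, ABCG5 and ABCG8 by week (horizontal axis), with thin lines joining the biopsies of an animal, control anti-miR in grey and anti-miR-33 in red. Wide marks and bars are the mean and SD of 6 animals. The ABCA1 means part at week 4 (7.64 and 8.20), the ABCG1 means stay between 4.95 and 5.16, and for ABCG5 control animals 2 and 5 are the highest and lowest of their arm at each biopsy.

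ABCG1, the exporter to mature HDL, had the arm differences closest to 0 of the 4 tested probe sets at each week. Its tested probe set 211113_s_at ran from 4.83 to 5.32 under control at week 4 (median 4.92) and from 4.70 to 5.30 under anti-miR-33 (median 4.91). At week 12 it ran from 4.82 to 5.56 and from 4.92 to 5.52, and at week -5 from 4.93 to 5.28 and from 4.75 to 5.15. The arms overlapped at each biopsy. The arm difference was -0.03, -0.04 and -0.04 at weeks -5, 4 and 12 (SE 0.11 each), and the 95% interval at week 4 was -0.26 to 0.18. A rise of the size that ABCA1 showed at week 4 lies outside that interval, although the 2 probe sets need not respond alike to an equal change of their transcripts.

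Over time ABCG1 211113_s_at was not called in any comparison; its largest change averaged over the arms, from week 4 to week 12, was 0.17 ± 0.07 (limma adjusted p = 0.0729; exact permutation p = 0.0156; up in 9 of 12 animals), which passed without control animal 6 (0.22, limma adjusted p = 0.0292). Its 3 other probe sets had means of 3.87, 3.83 and 3.08, at which a change of the transcript may not show. Of these, 232081_at was at 4.53 and 4.96 in control animals 3 and 4 at week 12, when the anti-miR-33 arm had a highest value of 4.14. Without the filter, 2 changes of these dim probe sets were called, in opposite directions. In control animals 232081_at rose by 0.46 ± 0.13 from week 4 to week 12 (limma adjusted p = 0.0368; exact permutation p = 0.0938; up in 5 of 6 animals; 1.64% of all called higher). Averaged over the arms, 230913_at fell by 0.21 ± 0.06 from week -5 to week 12 (limma adjusted p = 0.0142; exact permutation p = 0.00488; up in 3 of 12 animals; 8.24% of all called lower). The ABCG1 probe sets thus disagreed over time. The arm difference of 232081_at at week 12, without the filter, was -0.36 ± 0.14 (exact permutation p = 0.123; limma adjusted p = 0.999).

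ABCG5, a partner of the biliary sterol transporter, showed more difference between animals than between arms or biopsies. Under control it ran from 7.96 to 9.48 at week -5 (median 8.62), from 7.97 to 9.20 at week 4 (median 8.45) and from 8.30 to 9.45 at week 12 (median 8.91). Control animal 2 was the highest and control animal 5 the lowest of that arm at all 3 biopsies. Under anti-miR-33 it ran from 8.32 to 8.63, from 8.05 to 8.60 and from 8.08 to 9.03 (medians 8.51, 8.48 and 8.70), inside the range of the control arm at week -5 and week 4. The arm difference was -0.15, -0.18 and -0.23 (SE 0.18 each), present before treatment at nearly the same size, and at week 4 its 95% interval was -0.55 to 0.19. Without control animal 2 the week -5 difference was 0.021.

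The correlation of ABCG5 between biopsies of an animal, after the group means were taken out, was 0.81. This lay at the 99.5th percentile of all tested probe sets, whose median was 0.13. The same figure was 0.42 for ABCG8 (88.0th percentile), 0.19 for ABCG1 (59.8th percentile) and -0.31 for ABCA1 (0.634th percentile). The model used a common value of 0.141 for all probe sets, below that of ABCG5 and above that of ABCA1. With each animal as a fixed block, limma adjusted p averaged over the arms was 0.00108 for ABCA1 from week -5 to week 12. It was 0.000781 for ABCG5 from week 4 to week 12. The first is larger and the second smaller than the values of the model given below.

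ABCG8, the other partner, was also slightly lower under anti-miR-33 before and during treatment. At week -5 it ran from 7.53 to 8.40 under control (median 8.20) and from 7.69 to 8.30 under anti-miR-33 (median 7.95). At week 4 the ranges were 7.86 to 8.95 (median 8.58) and 8.03 to 8.60 (median 8.26), and at week 12 they were 8.06 to 8.77 (median 8.61) and 7.79 to 8.82 (median 8.49). The arms overlapped at every biopsy. The arm difference was -0.15, -0.22 and -0.16 (SE 0.16 each), with exact permutation p of 0.377, 0.260 and 0.422. No member was called at week 12 either, in a comparison where limma called 1 of 22391 probe sets (0.00447%), that of PIN4, and 671 had an unadjusted p under 0.05.

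Over time, averaged over the arms, 3 of the 4 exporters rose, and with RNA integrity in the model, described further on, only the ABCA1 rise from week 4 to week 12 was still called. ABCA1 rose from week 4 to week 12 and from week -5 to week 12, ABCG8 from week -5 to week 4 and from week -5 to week 12, and ABCG5 from week 4 to week 12. Between week -5 and week 4, 1 of the 4 tested members was called higher, where 16.7% of all probe sets were called higher. The count was 2 of 4 from week -5 to week 12, against 11.2% of all, and 2 of 4 from week 4 to week 12, against 12.9%. Counting both directions, 36.5%, 25.9% and 26.3% of all tested probe sets were called over these intervals, so a call over time was common on these arrays.

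ABCA1 rose by 0.56 ± 0.11 from week -5 to week 12 (1.47-fold; limma adjusted p = 0.000283; exact permutation p = 0.00391; 10 of 12 animals). From week 4 to week 12 it rose by 0.44 ± 0.11 (limma adjusted p = 0.00371; exact permutation p = 0.00488; 10 of 12 animals). Its mean change from week -5 to week 4, where the arms went apart, was 0.12 ± 0.11 and not called. The dim probe set 203504_s_at gave 0.51 ± 0.09 from week -5 to week 12, up in 12 of 12 animals, and 0.31 ± 0.09 from week -5 to week 4, both called without the filter (limma adjusted p = 7.5e-05 and 0.00811; 6.31% and 13% of the 41097 probe sets were called higher there). Its change from week 4 to week 12, 0.20 ± 0.09, was not called (limma adjusted p = 0.117).

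ABCG8 rose by 0.33 ± 0.11 from week -5 to week 4 (limma adjusted p = 0.0143) and by 0.41 ± 0.11 from week -5 to week 12 (limma adjusted p = 0.00393), in each case in 11 of 12 animals (exact permutation p = 0.00195). Among all tested probe sets, 7.85% and 5.99% went up in at least 11 of 12 animals over these intervals. The animals that went against it were control animal 4 at week 4, from 8.40 to 8.19, and anti-miR-33 animal 1 at week 12, from 8.30 to 7.99. From week 4 to week 12 ABCG8 changed by 0.08 ± 0.11, up in 7 of 12 animals.

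ABCG5 followed another course. Its change from week -5 to week 4 was -0.11 ± 0.12, with 8 of 12 animals going down, and from week 4 to week 12 it rose by 0.33 ± 0.12 in 11 of 12 animals (limma adjusted p = 0.0396; exact permutation p = 0.00146; 7.13% of all tested probe sets went up in at least 11). This call ended under several alternatives: without the replicate block (limma adjusted p = 0.0942), without the filter (0.0617), with quantile normalization (0.0631) and with array weights (0.0585). With each animal as a fixed block it was kept, at a limma adjusted p of 0.000781. It was lost without control animal 1 (0.33, limma adjusted p = 0.0648), 3 (0.31, limma adjusted p = 0.0857) or 4 (0.30, limma adjusted p = 0.0761). It was also lost without anti-miR-33 animal 2 (0.30, limma adjusted p = 0.0915), 3 (0.32, limma adjusted p = 0.0689), 5 (0.33, limma adjusted p = 0.0636) or 6 (0.30, limma adjusted p = 0.0764). From week -5 to week 12 ABCG5 was not called (limma adjusted p = 0.192) and passed, of the alternatives run, only with each animal as a fixed block (0.22, limma adjusted p = 0.0158).

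RNA integrity moved with these intervals. Within the groups, ABCG8 was lower where the 3′ minus 5′ difference was larger, by 0.52 ± 0.12 log2 per unit (limma adjusted p = 0.00124; 16.4% of all probe sets had a slope that was called, 11.7% with a slope below 0). The slopes of ABCG5, ABCA1 and ABCG1 were -0.31 ± 0.15, -0.17 ± 0.15 and 0.03 ± 0.10 and were not called. With this measure in the model the ABCG8 changes from week -5 became 0.0047 ± 0.11 at week 4 and 0.02 ± 0.12 at week 12, and both calls were lost.

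ABCA1 kept its rise from week 4 to week 12 in that model, at 0.42 ± 0.11 (limma adjusted p = 0.00533). Its rise from week -5 to week 12 was 0.43 ± 0.16 and no longer called (limma adjusted p = 0.108), while the calls over all probe sets fell from 25.9% to 4.8% over that span (from 36.5% to 25.2% for week -5 to week 4, and 26.4% against 26.3% for week 4 to week 12). Under anti-miR-33 the ABCA1 call from week -5 to week 12 was lost as well (0.55, limma adjusted p = 0.240). ABCG5 from week 4 to week 12 stood at 0.29 ± 0.12 (limma adjusted p = 0.0608). Over that interval the 3′ minus 5′ mean went from 1.94 to 1.83. Endothelial markers, 8 in number, also moved, from a mean of 6.23 and 6.16 in the arms at week -5 to between 5.75 and 5.87 afterwards, and 3 blood genes from 7.97 and 7.69 to 7.15 and 7.03 at week 12. Their part in the changes of the exporters was not tested. A biopsy holds several cell types, so fewer cells of a type and less RNA per cell cannot be told apart.

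**Figure D3:**
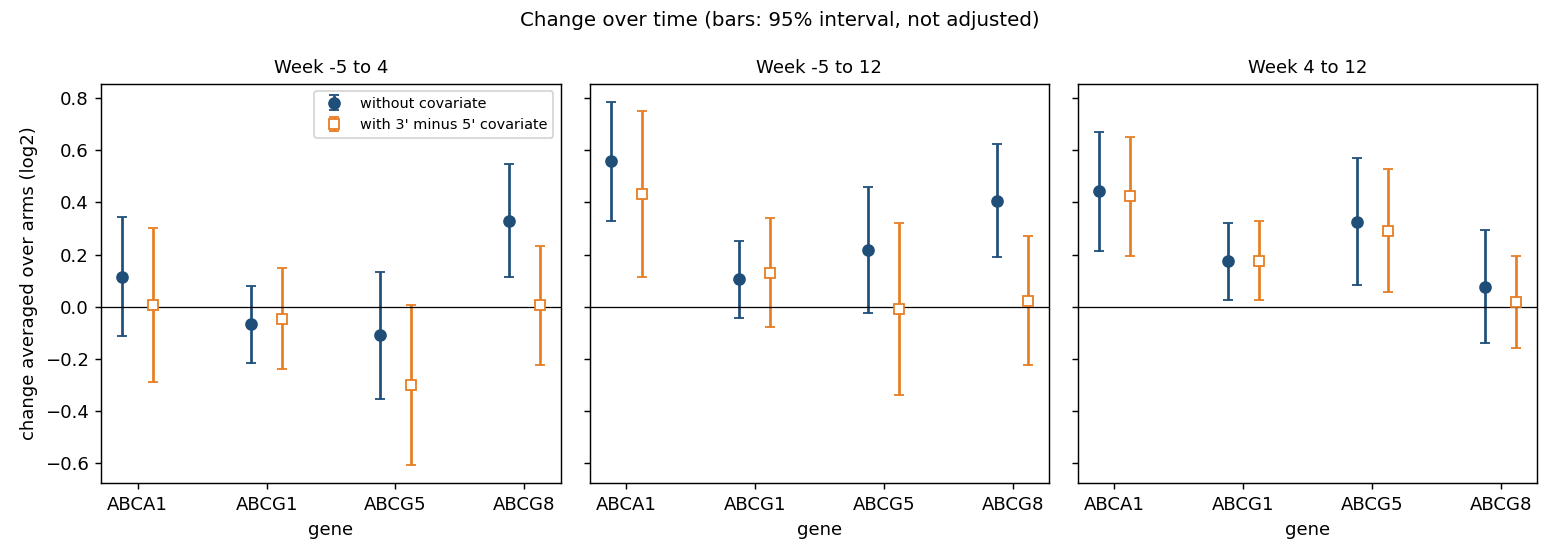
Change between biopsies averaged over the arms, in log2 units (vertical axis), for the 4 tested genes (horizontal axis) over 3 intervals (panels), without (blue circles) and with (orange squares) the 3′ minus 5′ measure as a covariate. Bars are 95% intervals without adjustment for the number of tests. The ABCG8 rises of 0.33 and 0.41 from week -5 go to 0.0047 and 0.02 with the covariate, whereas the ABCA1 rise from week 4 to week 12 goes from 0.44 to 0.42.

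ABCG5 and ABCG8 levels were correlated over the animals by Pearson's r, while the rank correlation did not pass after adjustment. Over the 12 animals, each taken as the mean of its 3 biopsies, ABCG5 ran from 8.08 in control animal 5 to 9.38 in control animal 2, and these same animals had the lowest and the highest ABCG8, 7.82 and 8.66. Pearson's r was 0.829 (permutation p = 0.00157; 0.00942 after Benjamini-Hochberg adjustment over the 6 pairs of members) and Spearman's rho was 0.634 (permutation p = 0.0292, adjusted 0.175). Without control animals 2 and 5, which were farthest from the median of ABCG5, r was 0.674. It was 0.860 within the control arm and 0.692 within the anti-miR-33 arm. With both arms together and the arm means left in, it was 0.658, 0.793 and 0.783 at weeks -5, 4 and 12. For the other 5 pairs r lay between -0.284 and 0.067, and none had an adjusted p under 0.05 (the lowest was 0.909).

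**Figure D4:**
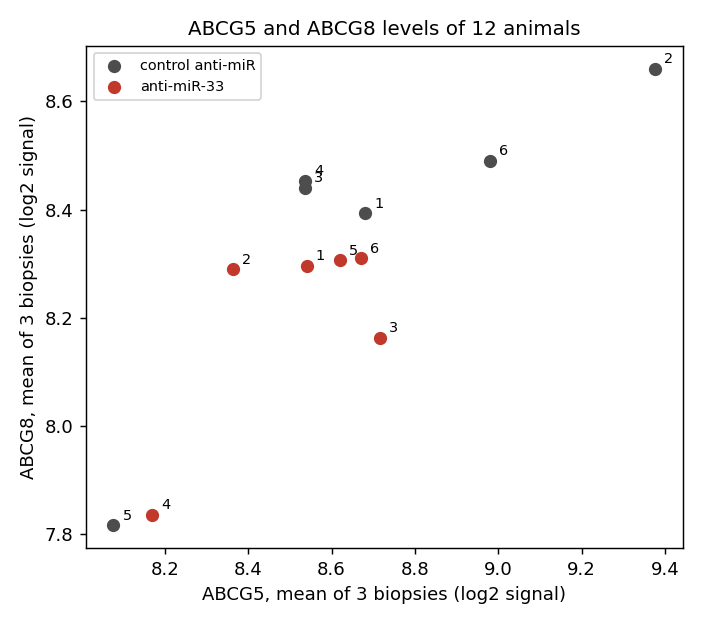
ABCG8 against ABCG5 in 12 animals (both axes log2 signal, mean of 3 biopsies), control anti-miR in grey and anti-miR-33 in red, each point labelled with the animal's number within its arm. Control animals 2 and 5 lie at the upper and lower ends (9.38 and 8.66, 8.08 and 7.82), and r was 0.829 over all 12 points.

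The changes of the pair are set side by side as a description with no test, since this comparison was chosen after the values had been seen, and the probe sets need not respond alike to an equal change of their transcripts. Within the animal, ABCG8 changed by 0.44 ± 0.08 more than ABCG5 from week -5 to week 4 (SE, n = 12; above 0 in 11 animals, all but control animal 4, and in all 6 under anti-miR-33). From week 4 to week 12 it changed by 0.25 ± 0.07 less (below 0 in 10 of 12). Over the whole span from week -5 to week 12 ABCG8 gained 0.19 ± 0.07 more (above 0 in 9 of 12). Both intervals that end or start at week 4 include the separately numbered arrays, and the first also spans the fall in the 3′ minus 5′ difference, on which the slopes of ABCG8 and ABCG5 were -0.52 and -0.31 (their difference was not tested).

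**Figure D5:**
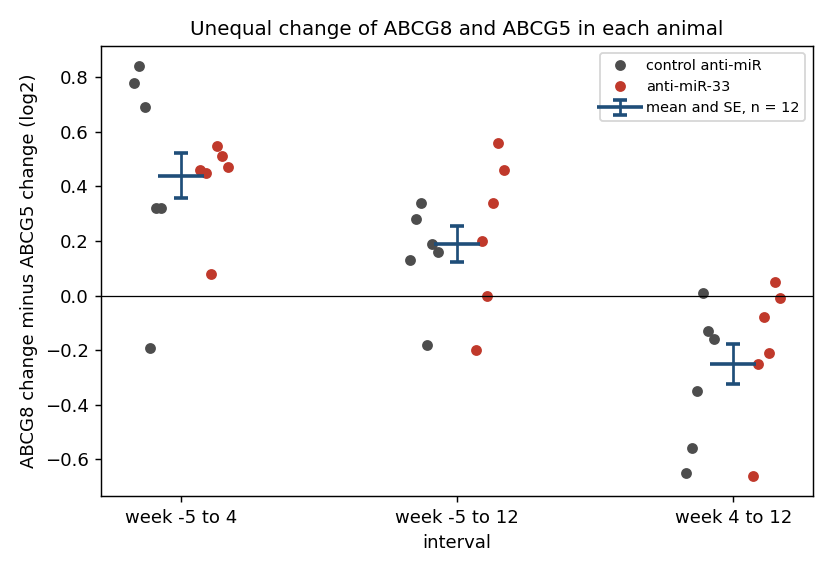
Change of ABCG8 minus change of ABCG5 within each animal, in log2 units (vertical axis), over 3 intervals (horizontal axis), control anti-miR in grey and anti-miR-33 in red. Blue marks and bars are the mean and SE of 12 animals, at 0.44, 0.19 and -0.25. The points lie mostly above 0 from week -5 to week 4 and mostly below 0 from week 4 to week 12 in both arms.

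Genes whose course over the 36 arrays was most like that of each member, by Pearson's r after the mean of each week was taken out and over 13633 other genes, are given as a description. For ABCA1 these were MSRB1 (0.55), RAPH1 (0.54) and GNB4 (0.54), and for ABCG1 they were NFKB1 (0.62), JUP (0.62) and GNPAT (0.59). For ABCG5 they were LGALSL (0.79), PARK7 (0.79) and ADGRV1 (0.76), with ABCG8 at rank 5 (0.75). For ABCG8 they were CPPED1 (0.84), CRYL1 (0.82) and SLC23A1 (0.82), with ABCG5 at rank 40. Pooled over the weeks, ABCA1 was near 0 with the biliary pair (-0.03 with ABCG5 and -0.01 with ABCG8), but the single weeks differed. With both arms together and the arm means left in, its r with ABCG5 and ABCG8 was 0.742 and 0.680 at week -5, -0.312 and -0.362 at week 4, and -0.399 and -0.133 at week 12. Over animal means it was 0.464 and 0.637 within the control arm, and -0.066 and -0.701 within the anti-miR-33 arm. These differences were not tested. The week 4 values also hold the arm differences of that week (0.55 for ABCA1, -0.18 for ABCG5 and -0.22 for ABCG8). Arm means were likewise left in for the pooled values and the most similar genes above. The 36 arrays come from 12 animals and share RNA quality within a week, so these are not independent points.

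Regulators of LXR targets (the receptors, their partners and cofactors, and SREBF2, a miR-33 host gene) were not called between the arms. Of 17 tested genes of that list, 0 were called at week 4 or week 12 and 0 had an unadjusted p under 0.05. NR1H3, the gene of LXR alpha, differed by 0.02 ± 0.14 at each of the 2 weeks. SREBF2 differed by 0.13 ± 0.08 at week 4 and -0.04 ± 0.08 at week 12. The smallest p at week 4 were those of PPARD (-0.21) and PPARA (-0.26), receptors of fatty acids, and at week 12 those of RXRA (-0.18), the partner of LXR, and NR0B2 (-0.39). The list median at week 4 was 0.01, as it was over all genes.

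Over time NR1H3 went down and ABCA1 went up, but mainly over different intervals. NR1H3 fell by 0.50 ± 0.09 from week -5 to week 4 and by 0.53 ± 0.09 from week -5 to week 12, and TBL1X and SP1 fell with it. ABCA1 changed by 0.12 from week -5 to week 4 and was not called. From week 4 to week 12, when ABCA1 rose by 0.44, the NR1H3 change ran from -0.076 to 0.011 with an animal or array left out. NR0B2, the corepressor SHP, rose by 1.04 ± 0.15 from week -5 to week 12 and by 0.83 ± 0.15 from week 4 to week 12. In all, 1 of the 17 was called higher and 5 lower from week -5 to week 12, and 1 and 2 from week 4 to week 12 (from week -5 to week 4, 1 and 3), where 25.9%, 26.3% and 36.5% of all tested probe sets were called in either direction. SREBF2 moved by -0.07 ± 0.05 over the whole span and was not called. Values over time in this and the following lists are without the 3′ minus 5′ measure, unless stated. With that measure in the model, 4.8% of all tested probe sets were called from week -5 to week 12. The share was 25.2% from week -5 to week 4 and 26.4% from week 4 to week 12.

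Other LXR targets split in direction. Of 18 tested targets besides the exporters, 0 were called between the arms at week 4 or week 12, and 1 and 0 had an unadjusted p under 0.05; the list medians were 0.04 and -0.06. CETP, which trades cholesteryl ester between lipoproteins, and SREBF1, the driver of fatty acid synthesis, were higher at week 4 by 0.53 ± 0.23 and 0.64 ± 0.42, and at week 12 SREBF1 differed by -0.69 ± 0.42 and APOE by 0.18 ± 0.13, none of which passed. Called over the whole span from week -5 to week 12 were 5 higher and 3 lower, where 25.9% of all tested probe sets were called (11.2% higher). SCD, a desaturase, rose by 2.22 ± 0.25, SREBF1 by 1.26 ± 0.28 and FASN, the fatty acid synthase, by 1.24 ± 0.45 (-0.050 with the 3′ minus 5′ measure in the model), while CETP fell by 1.55 ± 0.15 and PLTP, the phospholipid transfer protein, fell by 0.31 ± 0.07. Between week -5 and week 4 it was 4 higher and 6 lower, and from week 4 to week 12 it was 3 and 3 (36.5% and 26.3% of all called), with RNF145 and APOC2 up and MLXIPL and ABCA7 down.

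Among 21 tested genes of HDL and cellular cholesterol handling, 0 were called between the arms at week 4 or week 12, and 2 and 3 had an unadjusted p under 0.05. At week 4 the smallest p belonged to OSBPL6, an oxysterol-binding protein, at 0.73 ± 0.26 (unadjusted p = 0.00767), and to CETP, and at week 12 to APOA4 (-0.51 ± 0.16) and LIPA (-0.23 ± 0.11). Over the whole span 4 were called higher and 7 lower (25.9% of all tested probe sets called, 11.2% higher). LIPA, the lysosomal acid lipase, rose by 0.55 ± 0.07 and INSIG1, a brake on SREBP processing, by 0.66 ± 0.19, while the cholesterol synthesis genes HMGCS1 and SQLE fell by 1.09 ± 0.20 and 0.67 ± 0.14. From week 4 to week 12 HMGCS1 and SQLE fell by 0.77 ± 0.20 and 0.71 ± 0.14. ABCA1 and ABCG5 were called higher over the same interval, and ABCG8 was not. Chow gave way to the diet high in carbohydrate and moderate in cholesterol over it, together with time and the array numbering. A link between these changes was not tested. The counts were 4 higher and 5 lower there (26.3% of all called), and 2 and 3 from week -5 to week 4 (36.5% of all).

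Of 18 tested genes of bile acid and sterol secretion, the pathway that ABCG5 and ABCG8 feed, 0 were called between the arms at week 4 or week 12, and 0 and 2 had an unadjusted p under 0.05. CYP27A1, a sterol hydroxylase, differed by 0.15 ± 0.08 at week 4 and 0.17 ± 0.08 at week 12. ABCB4, the canalicular phospholipid flippase that works beside ABCG5 and ABCG8, was at -0.58 ± 0.33 at week 4, and SLCO1B3, an uptake carrier, at 0.20 ± 0.09 at week 12. Of the 18, 6 were called higher and 5 lower from week -5 to week 12 (25.9% of all tested probe sets called, 11.2% higher). ABCB11, the bile salt export pump, rose by 1.10 ± 0.17 and ABCB1, a canalicular drug pump, by 0.63 ± 0.08, while ATP8B1, KLB and NPC1L1 fell by 0.57 ± 0.10, 0.33 ± 0.08 and 0.28 ± 0.07. The counts from week -5 to week 4 were 5 higher and 3 lower (36.5% of all called), and ABCB11 rose by 0.80 ± 0.17. From week 4 to week 12 they were 3 and 4 (26.3% of all called), and FGFR4, the receptor of the bile acid feedback hormone, fell by 0.50 ± 0.08. Among these, the calls of ABCC2 and ABCC3 (0.45 and 0.43, higher at week 4) and of ATP8B1 (-0.29, lower at week 4) turned in sign with the 3′ minus 5′ measure in the model.

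Of the 30 other ABC transporter genes tested, 0 were called between the arms at week 4 or week 12, and 0 and 1 had an unadjusted p under 0.05; the list medians were 0.02 and 0.01. Their smallest p at week 4 were those of ABCB4 and ABCA2 (-0.14 ± 0.08), and at week 12 those of TAP1 (-0.28 ± 0.12) and ABCA6 (0.23 ± 0.12). From week -5 to week 4, 10 were called higher and 7 lower (36.5% of all tested probe sets called, 16.7% higher), among them ABCC9 (0.49 ± 0.07) and ABCG2 (0.48 ± 0.11) higher and ABCC5 (-0.42 ± 0.08) and ABCB6 (-0.38 ± 0.07) lower. From week -5 to week 12 it was 7 and 3 (25.9% of all), and from week 4 to week 12 it was 2 and 4 (26.3% of all). ABCB10, a mitochondrial transporter, and ABCB1 were the 2 called higher over the last interval (0.36 ± 0.10 and 0.48 ± 0.08), over which ABCA1 rose by 0.44.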

How the data were processed

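RNA from 36 liver biopsies was hybridised to a human expression array. The authors deposited log2 values made with RMA, per the submitters' processing notes, a method that corrects background, normalizes arrays and sums up probes. Its version is not given in the sources used here. These values ran from 2.41 to 15.07, and the number of animals limits the precision. Genes were named from GEO's platform annotation; 1801 probe sets named several genes and 11777 were not listed, and none of these was used. NR1H2 was not analysed here, and CYP7A1 was under the filter.

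Probe sets naming 1 gene, with a mean at or above the median, were fitted in R 4.3.3 with limma 3.58.1 on 6 group means, with the animal as a random block (correlation 0.141), over 15 comparisons with Benjamini-Hochberg adjustment. Deviations from the group means correlated at 0.150 to 0.402 between biopsies of an animal, and the pairing itself comes from the animal identity in the labels. Single member values were also tested by exact permutation of arms, or of signs within animals. A gene of a list was read from its brightest probe set.

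The members, gene lists and tests were chosen with earlier results of these data known. Named were all member probe sets, the 3 genes most like each, and per list up to 3 genes called in each direction over time, the 2 of smallest p between the arms, and SREBF2, SREBF1, CROT and NR1H3. The lists overlap (for example ABCB1, ABCB4, ABCB11 and CETP stand in 2 lists), and ABCA7 is in 2. The fit was tested on simulated data. The alternatives were the filter, normalization, block, covariate, array weights, probe set and leaving out an animal.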

Additional observations from a re-analysis of the deposited data

Results flagged for a closer look

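Each member probe set was checked for a biopsy that stood apart from its group, in 60 groups of 6, and chance alone sets apart about 1 group in 20; here 2 did, both of ABCG1 at week 12 under anti-miR-33. ABCG1 211113_s_at was at 5.52 in anti-miR-33 animal 2, while the other 5 animals lay between 4.92 and 5.12. Without this animal the ABCG1 change from week -5 to week 12 in that arm went from 0.10 to -0.034, and neither was called. The dim ABCG1 204567_s_at was at 3.43 in anti-miR-33 animal 6, against 3.01 to 3.13 in the others.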

How the results depend on the processing

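The ABCA1 difference between the arms at week 4 lay between 0.50 and 0.56 under the 12 alternatives of the fit and between 0.45 and 0.64 when an animal was left out, and was called in none. Without the replicate block it was 0.55 (adjusted p = 0.915). Without that block the week 4 to 12 call of ABCG5 was lost (adjusted p = 0.0942), as it was with no filter, quantile normalization or array weights (0.0617, 0.0631 and 0.0585), and called probe sets fell to 1015 (control) and 1698 (anti-miR-33) for week 4 to 12; with the animal as a fixed block 1 probe set was called in the arm difference of the change from week -5 to 4, against 0. Called counts also moved as follows. The 75th percentile filter gave 5188 for week -5 to 4 over both arms. With 1 probe set per gene the counts were 4871, 3739 and 3759 over both arms (weeks -5 to 4, -5 to 12 and 4 to 12), 2465 (-5 to 4) and 1157 (4 to 12) for control, and 2546, 2221 and 1705 for anti-miR-33. The arms at week 12 gave 0 instead of 1 with that setting, with arrays centred on the median, with only the compared groups, and without the week 12 array of control animal 5; the last 2 gave 1097 and 1109 for control from week 4 to 12. The 3′ minus 5′ covariate gave 1075 over both arms, 688 for control and 184 for anti-miR-33 from week -5 to 12, and 2665 for anti-miR-33 from week -5 to 4. Array weights gave 5486 for anti-miR-33 from week -5 to 12. With an animal or 1 array left out, counts ran from 7181 to 8196, 4838 to 6107 and 4882 to 6239 over both arms, from 2829 to 4237, 723 to 2318 and 838 to 1898 for control, from 2720 to 4579, 1832 to 3950 and 1422 to 2833 for anti-miR-33, and from 0 to 1 for the arms at week 12.

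Signs turned as follows, and the cause was not tested. With the covariate, ABCG5 became -0.0089 (both arms, -5 to 12) and -0.094 (anti-miR-33, -5 to 12), ABCG8 -0.090 and -0.058 (anti-miR-33, -5 to 4 and -5 to 12), ABCC2 -0.076, ABCC3 -0.0098 and ATP8B1 0.10 (-5 to 4), and FASN -0.050 (-5 to 12). With array weights, the arm difference in change became 0.0066 (-5 to 4) and 0.048 (-5 to 12) and 0.041 (4 to 12) for ABCG5, 0.023 for ABCG1 and 0.071 for ABCG8 (-5 to 12); ABCG8 in control was -0.026 (4 to 12) and NR1H3 at week 12 was -0.027. ABCG8 was 0.0050 in the arm difference of change (-5 to 12) with median centring and -0.022 in control (4 to 12) with quantile normalization. Without the week 12 array of control animal 5, NR1H3 was -0.065 between the arms and 0.011 from week 4 to 12.

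The dim probe sets turned other values, 1 of them called. ABCA1 1570279_at gave -0.018 and -0.017 at weeks 4 and 12 between the arms, 0.0017 for their change from week 4 to 12 and -0.0083 in control from -5 to 12. ABCA1 203504_s_at gave 0.14 at week -5, -0.050 for the arm difference in change from -5 to 12 and 0.16 in control from -5 to 4. ABCA1 216066_at gave 0.097 at week -5, -0.047 and -0.050 for the arm differences in change from week -5 to 4 and to 12, 0.067 in control from -5 to 4, and -0.0033 (anti-miR-33) and -0.0017 (both arms) from week 4 to 12. ABCG1 204567_s_at gave 0.065 and 0.088 between the arms at weeks 4 and 12, 0.083 and 0.11 for their changes from week -5, -0.045 and -0.037 in control and 0.075 and -0.013 in anti-miR-33, and 0.033 and -0.025 over both arms. ABCG1 230913_at gave 0.017 for the arm difference in change, -0.18 and -0.11 in control, -0.24 and -0.19 in anti-miR-33, and -0.21 (called, adjusted p = 0.0142) and -0.15 over both arms. ABCG1 232081_at gave 0.10 at week 4, 0.19 for the arm difference in change, and 0.035 and -0.0033 in anti-miR-33.

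Leaving out 1 animal or array at a time also turned values near 0, none of them called. Between the arms, ABCA1 ran from -0.14 to 0.041 and ABCG5 from -0.28 to 0.021 at week -5, ABCG1 from -0.054 to 0.026, -0.11 to 0.027 and -0.12 to 0.040 at weeks -5, 4 and 12, and NR1H3 from -0.067 to 0.11 and -0.065 to 0.083 at weeks 4 and 12. The arm difference in change ran, for ABCG1, from -0.14 to 0.048 (-5 to 4) and -0.15 to 0.044 (-5 to 12). For ABCG5 it ran from -0.10 to 0.027, -0.17 to 0.0033 and -0.13 to 0.020 (-5 to 4, -5 to 12 and 4 to 12), and for ABCG8 from -0.19 to 0.0033, -0.13 to 0.14 and -0.015 to 0.21. Over time, ABCG1 under anti-miR-33 ran from -0.034 to 0.16 (-5 to 12), ABCG8 in control from -0.064 to 0.11 (4 to 12), NR1H3 over both arms from -0.076 to 0.011 (4 to 12), and SREBF2 from -0.070 to 0.00050 (-5 to 4) and -0.069 to 0.0033 (4 to 12).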
